A study of Mus musculus with 11 samples.

Results

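The STAT and JAK genes encode the transcription factors and receptor kinases that carry interferon, prolactin and interleukin signals to the nucleus. The listed genes were *Stat2*, *Stat3*, *Stat4*, *Stat5a*, *Stat5b* and *Stat6*, and the kinase genes *Jak1*, *Jak2* and *Tyk2*. They were taken from the deposited tables by gene symbol and not by a cut on any measured value, but with earlier results of these data known. Of the 9 listed genes, 8 had a row among the 26283 genes of the tables, and *Stat4* was not analysed here. The samples were bulk RNA of 11 whole mammary tumors, collected at 18 weeks of age from C57BL/6 mice, 6 labelled PyMT_PCBP1_KO (KO below) and 5 labelled PyMT_PCBP1_WT (WT below). All mice carried the MMTV-PyMT transgene, a viral oncogene that drives mammary tumors, together with MMTV-Cre. KO mice had floxed *Pcbp1* alleles, PCBP1(fl/fl), and WT mice had PCBP1(wt/wt) alleles, with no further treatment named. The MMTV promoter drives Cre in mammary epithelium, so other cells of a KO tumor are designed to keep *Pcbp1*, and its level by cell type was not measured here. The labels do not say whether each tumor came from a separate mouse, so the p-values measure the spread between these tumors.

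In the JAK-STAT pathway, a ligand brings receptor chains together, the kinases bound to them phosphorylate the receptor and the STAT proteins, and paired STAT proteins enter the nucleus and bind DNA. STAT2 is the factor that joins with IRF9 after type I and type III interferon and binds the interferon-stimulated response element, whereas most other STAT pairs bind the gamma-activated site. In the mammary gland, prolactin acts through JAK2 and STAT5 to switch on milk protein genes, and STAT3 is known for its part in involution after weaning.

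The deposited estimated counts summed to between 10543189 and 14092192 per tumor, and CPM denotes the deposited level, each count scaled by the sum of its tumor so that all tumors have the same total. At this depth 3 counts, the limit that a count of 0 allows, corresponded to between 0.213 and 0.285 CPM, and each of the 8 genes lay far above it. *Pcbp1*, the targeted gene, had 15.4, 20.9 and 33.6 CPM as the lowest, median and highest value of the 6 KO tumors, and 268, 271, 225, 220 and 259 CPM in WT replicates 1 to 5. The groups did not overlap, so that each tumor matched its label (log2 fold change -3.43, standard error 0.19, adjusted p = 4.72e-06 from edgeR).

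Several tumors stood apart in the values below. WT replicate 5 had the lowest level among WT tumors of each of the 13 listed STAT2 target genes, and its *Irf7* level was 40.0 CPM against at least 114 CPM in the other WT tumors. WT replicate 2 had the lowest level among WT tumors of 5 of the 8 genes, *Stat3*, *Stat5a*, *Stat5b*, *Jak1* and *Jak2*, and the highest of *Tyk2*. KO replicate 2 had the lowest level among KO tumors of 3 of the 8 genes and the highest of 4, and the lowest of 10 of the 13 targets, and WT replicate 3 had the highest WT level of 10 of the 13. Fold changes of the 8 genes that moved most without WT replicate 2 or 5 are given with and without it.

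Across all 19232 genes tested, 319 were lower in KO tumors (1.66%) and 117 were higher (0.608%) at an adjusted p under 0.05 in edgeR's quasi-likelihood test. Of the 8 STAT and JAK genes, 1 was lower, *Stat2*, and 0 were higher. At an unadjusted p under 0.05, 3 of the 8 were lower, *Stat2*, *Stat6* and *Tyk2*, beside 10.5% of all genes tested, and 0 were higher. The groups overlapped in CPM for all 8 genes, and 3.29% of all genes tested had no overlap. The median log2 fold change was -0.10 over the 8 genes and 0.00 over all genes tested, with 5 of the 8 values below 0. DESeq2 and limma-voom with sample quality weights each called 3 of the 8 lower and 0 higher, but also called more of all 19232 genes, 723 lower and 482 higher with DESeq2 and 1190 lower and 968 higher with limma-voom. Counts were simulated once for 18976 genes of this comparison, with the spread of each gene as edgeR estimated it. Of the calls, 32 of 202 were false with DESeq2, 11 of 169 with edgeR and 5 of 159 with limma-voom with sample quality weights. A single draw, made with edgeR's own estimates, cannot decide which calls on these tumors are false.

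**Figure D1:**
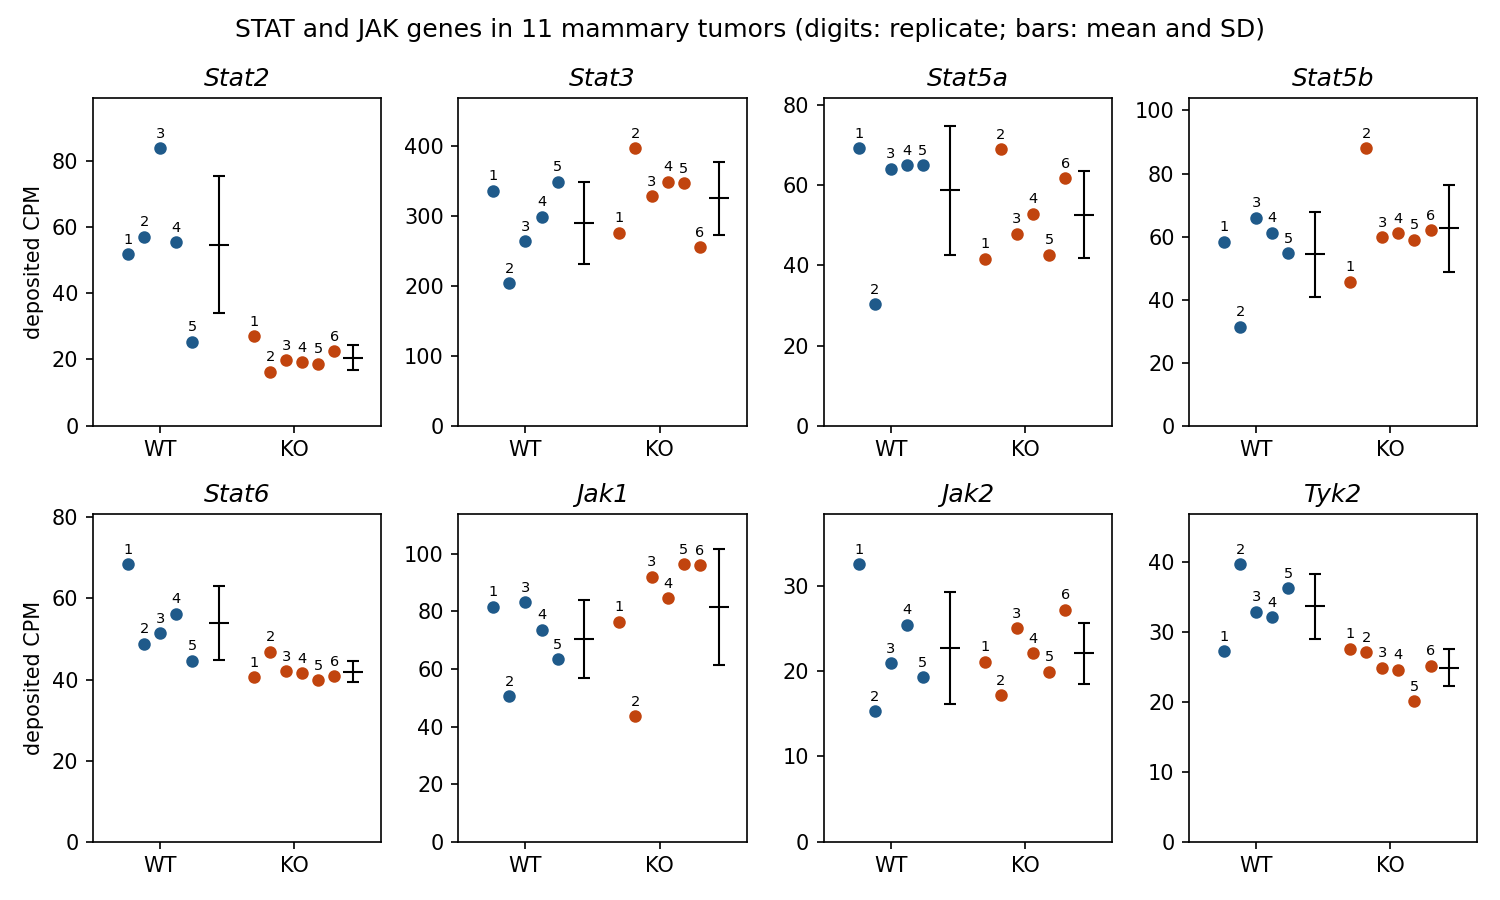
Deposited CPM of the 8 STAT and JAK genes in each tumor, with WT tumors in blue and KO tumors in red, the replicate number above each point, and the mean and SD of the group as a bar beside the points. *Stat2* lay between 16.3 and 27.0 CPM in KO tumors and between 51.8 and 83.8 CPM in WT replicates 1 to 4, with WT replicate 5 at 25.4 CPM.

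*Stat2*, whose protein is found only in the interferon pathways, was the gene of the family that passed the threshold in edgeR with all tumors. The *Stat2* level was 51.8, 57.0, 83.8, 55.3 and 25.4 CPM in WT replicates 1 to 5, and 27.0, 16.3, 19.7, 19.2, 18.7 and 22.5 CPM in KO replicates 1 to 6. WT replicates 1 to 4 were high, WT replicate 5 was low, and the groups overlapped because KO replicate 1 lay above WT replicate 5. The other 5 of 6 KO tumors lay below every WT tumor. *Stat2* had 20.6 ± 3.73 CPM (SD, n = 6) in KO and 54.7 ± 20.8 CPM (SD, n = 5) in WT tumors, a log2 fold change of -1.42 with a standard error of 0.24 and a 95% interval from -1.95 to -0.89 (adjusted p = 0.0112 from edgeR). Without WT replicate 5, the log2 fold change was -1.59 (adjusted p = 0.00131 from edgeR), and without WT replicate 2 it was -1.41 (adjusted p = 0.0216 from edgeR). In bulk tumors, fewer cells that express a gene and less RNA of that gene per cell cannot be told apart.

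*Stat2* (ENSMUSG00000040033.16) lies on the plus strand at chr10:128270559-128292849 of GRCm38. The genes next to it were *Apof*, 405 bases before it, and *Il23a*, 3289 bases after it. Neither passed the filter on low counts, with at most 0.789 CPM of *Apof* and at most 1.70 CPM of *Il23a* in any tumor.

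RefSeq promoter windows, 250 bases before to 50 after a gene's start in GRCm38.p6, were matched by symbol for all 8 genes, 10 windows in all. They were searched for the core of the interferon-stimulated response element, GAAANNGAAA, on both strands (TTTCNNTTTC on the other), and for the gamma-activated site TTCNNNGAA, which reads the same on both strands. The response element core was present in 3.44% of all 32851 windows and in 3.99% of the 27025 genes with a window. Of the 8 genes, 1 had it, *Stat2*, and 0 had the gamma-activated site, which was present for 9.55% of all genes. The *Stat2* match lay 222 bases before the RefSeq start, chr10:128270276-128270285. The 250 bases before that start are printed because they hold the match, in capitals, of the gene past the threshold, chr10:128270248-128270497 on the plus strand.

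Stat2: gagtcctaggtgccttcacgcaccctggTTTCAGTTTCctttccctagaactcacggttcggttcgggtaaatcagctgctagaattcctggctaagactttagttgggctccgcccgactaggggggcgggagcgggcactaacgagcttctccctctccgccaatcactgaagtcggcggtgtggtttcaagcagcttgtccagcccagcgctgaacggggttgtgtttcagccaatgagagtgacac

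A list of 13 targets of the complex of STAT2 and IRF9 had all 13 genes lower (adjusted p under 0.05, edgeR) and 0 higher, with a median log2 fold change of -2.28 beside 0.00 over all genes tested. The list was written with earlier results of these tumors known, so its direction is no independent evidence. Without WT replicate 5 the count lower was 13, and with each tumor left out or another setting it stayed between 10 and 13. *Irf7*, a factor that amplifies interferon production, had 11.4, 14.4 and 22.3 CPM as the lowest, median and highest KO value, and 125, 114, 155, 158 and 40.0 CPM in WT replicates 1 to 5. Its groups did not overlap (log2 fold change -2.89, standard error 0.31, adjusted p = 0.00194 from edgeR). The lowest log2 fold change of the list was that of *Rsad2*, which encodes viperin, at -3.05 (standard error 0.40, adjusted p = 0.00337 from edgeR).

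The other lower genes of that list were *Isg15* (log2 fold change -2.62), *Ifit1* (-2.80), *Ifit2* (-1.02), *Ifit3* (-2.81), *Mx1* (-2.28), *Oas1a* (-1.94), *Oas2* (-2.92), *Usp18* (-1.63), *Bst2* (-1.70), *Ifi44* (-1.95) and *Irf9* (-0.85). *Irf9* encodes the partner of STAT2 in the complex and is itself interferon-inducible. It had 74.7, 73.6, 78.3, 74.3 and 39.5 CPM in WT replicates 1 to 5, and 30.0, 37.2 and 46.4 CPM as the lowest, median and highest KO value (adjusted p = 0.0254 from edgeR). As for *Stat2*, WT replicate 5 lay within the range of the KO tumors and the other WT tumors lay above it.

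Windows were matched for 10 of the 13 targets, and 6 of the 10 held the response element core. The stretches below, from *Stat2* and those targets, were chosen for holding the core, so the likeness of their capitals was set by the search. They have 30 bases each, read along each gene's strand, with the match nearest the gene's start in capitals. They lie at chr10:128270266-128270295 (*Stat2*, plus strand), chr4:156200865-156200894 (*Isg15*, minus), chr19:34640794-34640823 (*Ifit1*, plus), chr19:34583397-34583426 (*Ifit3*, plus), chr5:120907520-120907549 (*Oas1a*, minus), chr12:26456553-26456582 (*Rsad2*, minus) and chr8:71537577-71537606 (*Bst2*, minus) of GRCm38.p6.

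Stat2: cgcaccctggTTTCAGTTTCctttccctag
Isg15: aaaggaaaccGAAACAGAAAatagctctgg
Ifit1: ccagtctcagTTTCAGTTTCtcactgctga
Ifit3: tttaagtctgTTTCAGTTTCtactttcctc
Oas1a: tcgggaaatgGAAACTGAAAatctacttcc
Rsad2: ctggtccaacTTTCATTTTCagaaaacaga
Bst2: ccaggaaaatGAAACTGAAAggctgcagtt

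*Stat2* and its targets also varied together within the groups. Over the 11 tumors, deviations of log2(CPM + 1) from the group means were compared as a description, and the tumors share library preparation and counts that sum to a fixed total. Pearson's r between *Stat2* and its 13 targets was above 0 for all 13, with a median of 0.901, from 0.716 for *Mx1* to 0.928 for *Bst2*. Without WT replicate 5 the median was 0.757, again with 13 of 13 above 0. Among 10872 protein-coding genes with a mean of at least 5 CPM, the patterns most like that of *Stat2* were those of *Apol9b* (r = 0.972, Spearman's rho 0.964), *Oasl2* (r = 0.955, rho 0.945) and *Xaf1* (r = 0.938, rho 0.891). Without WT replicates 3 and 5, the tumors whose deviations lay farthest from the median, r was 0.964, 0.883 and 0.745. These 3 genes were lower in KO tumors, with log2 fold changes of -2.58, -2.56 and -2.01 (adjusted p at most 0.00738, edgeR). Here and for each gene below, the 3 named had the highest r of a search over all 10872 genes. No level of r reached by chance in such a search was computed.

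*Stat6* encodes the factor that answers interleukin 4 and interleukin 13. The *Stat6* level was 68.4, 48.8, 51.4, 56.2 and 44.6 CPM in WT replicates 1 to 5, and 39.8, 41.2 and 46.9 CPM as the lowest, median and highest KO value. The KO tumors lay close together, with KO replicate 2 above WT replicate 5 and the other 5 below every WT tumor. Its log2 fold change, -0.36 (standard error 0.09, 95% interval from -0.55 to -0.17), missed the threshold (adjusted p = 0.0565 from edgeR). It passed without KO replicate 2 (adjusted p = 0.0499), without WT replicate 2 (0.0433) or without WT replicate 5 (0.0434), each from edgeR, and with DESeq2 (0.00863) or limma-voom with sample quality weights (0.00891). Over all 22 alternatives the adjusted p of edgeR, DESeq2 and limma lay between 0.00863 and 0.169.

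*Stat6* lies on the plus strand of the same chromosome as *Stat2*, chr10:127642986-127660957, and its last 40 bases overlap *Nab2* on the opposite strand. The log2 ratio of *Stat2* to *Stat6* was -1.04 ± 0.31 (SD, n = 6) in KO and -0.06 ± 0.58 (SD, n = 5) in WT tumors. This difference of -0.98 in log2 ratio had p = 0.00649 in an exact, two-sided permutation test over 462 splits (0.0130 when adjusted over 3 ratios). *Stat2* was thus lower by more than *Stat6* in the same tumors, although WT replicates 1 and 5, at -0.40 and -0.81, lay nearest the KO range of -1.53 to -0.59 and WT replicate 5 lay inside it.

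The list of STAT6 targets had 0 of 4 tested genes past the threshold in either direction, with a median log2 fold change of 0.31 beside 0.00 over all genes. Genes of this list included *Gata3*, a luminal lineage factor (log2 fold change -0.09, standard error 0.25), and *Il4ra*, a chain of the interleukin 4 receptor (-0.46, standard error 0.25). *Stat6* and *Il4ra* varied together within the groups (r = 0.804 over 11 tumors, as a description), and WT replicate 1 had the highest WT level of both. The patterns most like that of *Stat6* were those of *Lmbr1* (r = 0.942, rho 0.882), *Klhl3* (r = 0.940, rho 0.882) and *Zxdb* (r = 0.940, rho 0.845), with r of 0.868, 0.844 and 0.773 without WT replicates 1 and 5.

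*Stat3* encodes the factor used by interleukin 6, leukemia inhibitory factor and oncostatin M, which act through the shared gp130 chain. Its level was 336, 204, 264, 299 and 349 CPM in WT replicates 1 to 5, and 255, 337 and 397 CPM as the lowest, median and highest KO value. The groups overlapped broadly, with WT replicate 2 lowest and KO replicate 2 highest (log2 fold change 0.16, 95% interval from -0.17 to 0.49, adjusted p = 0.608 from edgeR). Without WT replicate 2 the *Stat3* log2 fold change was 0.06 (adjusted p = 0.845 from edgeR), and without WT replicate 5 it was 0.26 (0.346). Per kilobase of the GENCODE canonical transcript, the *Stat3* level was the highest of the family in both groups.

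Of 12 tested STAT3 targets, 2 were lower and 0 higher (edgeR), with a median log2 fold change of -0.37 beside 0.00 over all genes and 11 of 12 values below 0. *Osmr*, a chain of the oncostatin M receptor, had 288 ± 63.8 CPM (SD, n = 5) in WT and 185 ± 32.8 CPM (SD, n = 6) in KO tumors (log2 fold change -0.63, standard error 0.14, adjusted p = 0.0367 from edgeR). *Bcl2l1*, which encodes an inhibitor of apoptosis, had 111 ± 18.4 CPM (SD, n = 5) in WT and 80.4 ± 6.12 CPM (SD, n = 6) in KO tumors (log2 fold change -0.46, adjusted p = 0.0196 from edgeR). Of this list 1 gene was lower without KO replicate 6 or WT replicate 1, 4 or 5, and 0 were lower without KO replicate 3, 4 or 5, with library size only, with limma on log2 CPM or with the replicate block. Pearson's r between *Stat3* and these 12 targets was above 0 for 7, with a median of 0.171 and the highest value, 0.858, for *Lrg1*. The patterns most like that of *Stat3* were those of *Gng7* (r = 0.952, rho 0.982), *Tfeb* (r = 0.934, rho 0.845) and *Cdc42se1* (r = 0.933, rho 0.918), with r of 0.960, 0.847 and 0.869 without WT replicate 2 and KO replicate 6.

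*Stat5a* and *Stat5b* encode near-identical factors downstream of prolactin and growth hormone. *Stat5b* lies on the minus strand at chr11:100780731-100850724 of GRCm38, and *Stat5a* starts 8626 bases after it on the plus strand, chr11:100859351-100885169. The end of *Stat5a* overlaps 72 bases of *Stat3*, which lies on the minus strand at chr11:100885098-100939540. Reads from such similar genes could be split between them by the counting, whose method and use of strand are not given in the sources used here, so both levels carry that uncertainty.

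The *Stat5a* level was 69.3, 30.3, 64.1, 65.0 and 65.0 CPM in WT replicates 1 to 5, and 41.7, 50.4 and 69.0 CPM as the lowest, median and highest KO value. The *Stat5b* level was 58.3, 31.4, 66.0, 61.2 and 54.7 CPM in WT replicates 1 to 5, and 45.7, 60.4 and 88.1 CPM as the lowest, median and highest KO value. WT replicate 2 was the lowest tumor and KO replicate 2 was highest or near highest for both genes, and the groups overlapped. The log2 fold change was -0.16 for *Stat5a* (95% interval from -0.61 to 0.28, adjusted p = 0.709 from edgeR) and 0.20 for *Stat5b* (95% interval from -0.23 to 0.62). Without WT replicate 2 these values were -0.33 and 0.05 (adjusted p = 0.214 and 0.879 from edgeR).

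The 2 genes were also compared as a ratio within each tumor. The log2 ratio of *Stat5b* to *Stat5a* was -0.25, 0.05, 0.04, -0.09 and -0.25 in WT replicates 1 to 5, and 0.13, 0.35, 0.32, 0.21, 0.47 and 0.01 in KO replicates 1 to 6. KO replicate 6 lay below WT replicates 2 and 3, and the other 5 KO tumors lay above every WT tumor. The KO mean exceeded the WT mean by 0.35 in log2 ratio (p = 0.00866 by exact permutation, 0.0130 when adjusted over the 3 ratios), and by 0.30 to 0.39 with each tumor left out (adjusted p at most 0.0357, exact permutation test). A ratio shows unequal change and not which of the 2 genes changed. Within the groups, with all tumors, *Stat5a* and *Stat5b* had the highest r of the 28 pairs of the family, 0.917 (rho 0.845). Without WT replicate 2 and KO replicate 2 their r was 0.770, below the 0.863 of *Stat6* with *Jak2* (0.574 with all tumors).

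The list of STAT5 targets of the mammary gland had 0 of 8 tested genes past the threshold, with a median log2 fold change of -0.14 beside 0.00 over all genes and 4 of 8 values below 0. Without WT replicate 2, 1 of the 8 was lower in edgeR, and limma-voom with all tumors called 2 lower. *Csn3*, the kappa-casein gene and the most abundant of them, had 2085, 361, 1169, 1859 and 1637 CPM in WT replicates 1 to 5, and 215, 571 and 1167 CPM as the lowest, median and highest KO value. WT replicate 2, low in *Stat5a* and *Stat5b*, was also the lowest WT tumor for *Csn3*, and the groups overlapped (log2 fold change -1.22, standard error 0.43, adjusted p = 0.150 from edgeR). *Elf5*, a factor of the alveolar lineage, and *Socs2*, an inhibitor induced by STAT5, had log2 fold changes of 0.25 and 0.48 (adjusted p = 0.398 and 0.424 from edgeR). Pearson's r between *Stat5a* and the 8 targets was above 0 for 6, with the highest value, 0.842, for *Csn3*. The patterns most like that of *Stat5a* were those of *Folr1* (r = 0.963, rho 0.909), *Klhl28* (r = 0.953, rho 0.927) and *Zfp963* (r = 0.940, rho 0.864), with r of 0.872, 0.894 and 0.914 without WT replicate 2 and KO replicate 1. Those most like *Stat5b* were *Magi3* (r = 0.958, rho 0.918), *Fam234b* (r = 0.945, rho 0.918) and *Pdk2* (r = 0.939, rho 0.855), with r of 0.867, 0.841 and 0.857 without WT replicate 2 and KO replicate 2.

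**Figure D2:**
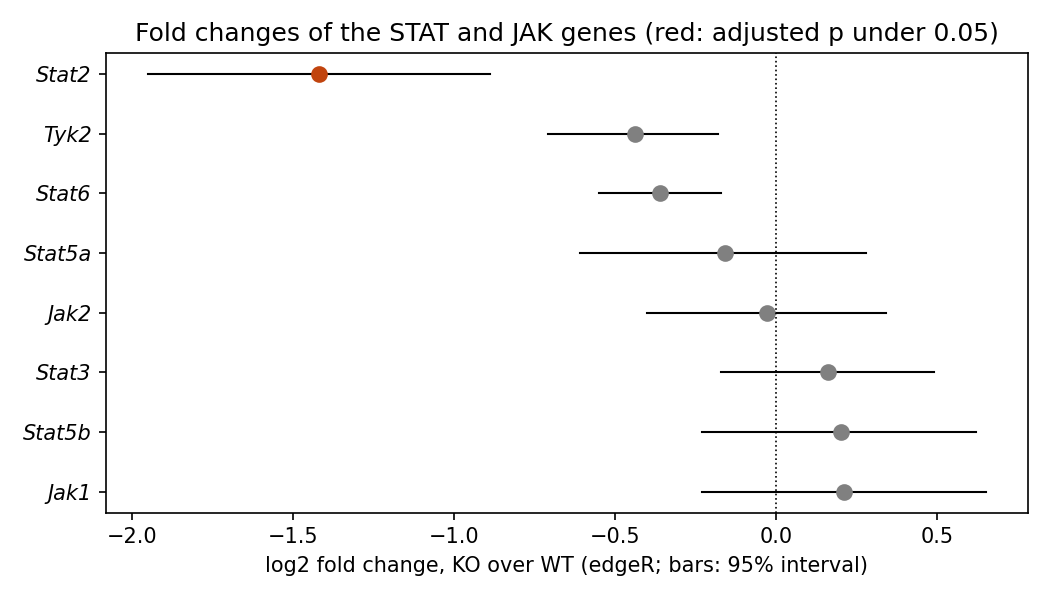
Log2 fold change of each of the 8 genes, KO over WT, from edgeR, with 95% intervals as bars and the gene with an adjusted p under 0.05 in red. *Stat2* is at -1.42, *Tyk2* and *Stat6* at -0.44 and -0.36 with intervals below 0, and the intervals of the other 5 genes include 0.

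Among the kinases, TYK2 and JAK1 serve the type I interferon receptor and JAK2 serves the receptors of prolactin, growth hormone and interferon gamma. The *Tyk2* level was 27.3, 39.7, 32.9, 32.1 and 36.3 CPM in WT replicates 1 to 5, and 20.1, 25.0 and 27.6 CPM as the lowest, median and highest KO value. WT replicate 1 lay among the KO tumors, just below KO replicate 1, and the other WT tumors lay above every KO tumor. Its log2 fold change, -0.44 (standard error 0.12, 95% interval from -0.71 to -0.18), missed the threshold (adjusted p = 0.0794 from edgeR). It passed without WT replicate 1 (-0.53, adjusted p = 0.0390 from edgeR), with DESeq2 (adjusted p = 0.0235) and with limma-voom with sample quality weights (adjusted p = 0.0362), within a range from 0.0235 to 0.188 over all 22 alternatives. An antisense RNA annotated across 24326 bases of *Tyk2*, chr9:21104068-21131243 on the minus strand, had at most 0.862 CPM. The patterns most like that of *Tyk2* were those of *Wdr83* (r = 0.972, rho 0.982), *Mettl5* (r = 0.883, rho 0.773) and *Muc6* (r = 0.860, rho 0.700). Without KO replicate 5 and WT replicate 1 these values of r were 0.995, 0.619 and 0.511.

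*Jak1*, the kinase shared by interferon and many interleukin receptors, lies at chr4:101152367-101265282 on the minus strand. Its level was 81.6, 50.6, 83.2, 73.6 and 63.4 CPM in WT replicates 1 to 5, and 43.7, 88.3 and 96.4 CPM as the lowest, median and highest KO value. Of the 6 KO tumors, 4 lay above every WT tumor and KO replicate 2 lay below every WT tumor (log2 fold change 0.21, 95% interval from -0.23 to 0.65, adjusted p = 0.613 from edgeR). Without KO replicate 2 the log2 fold change was 0.35 (adjusted p = 0.201 from edgeR), and without WT replicate 2 it was 0.11 (adjusted p = 0.795 from edgeR). The patterns most like that of *Jak1* were those of *Nrep* (r = 0.956, rho 0.836), *Jun* (r = 0.928, rho 0.773) and *Trim62* (r = 0.913, rho 0.909), and without KO replicate 2 and WT replicate 2 these values of r were 0.747, 0.761 and 0.810.

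The log2 ratio of *Tyk2* to *Jak1* was -1.67 ± 0.54 (SD, n = 6) in KO and -1.05 ± 0.48 (SD, n = 5) in WT tumors. The difference of -0.62 missed the threshold (p = 0.0866 by exact permutation, the same when adjusted). KO replicate 2, at -0.69, lay above 4 of the 5 WT tumors, and KO replicate 1, at -1.47, lay within the WT range. Without KO replicate 2 the difference was -0.81 (exact permutation test, adjusted p = 0.0238), and without any other tumor the adjusted p of that test lay between 0.0571 and 0.190.

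*Jak2*, at chr19:29251828-29313080 on the plus strand, had 32.5, 15.3, 20.9, 25.4 and 19.3 CPM in WT replicates 1 to 5, and 17.2, 21.6 and 27.2 CPM as the lowest, median and highest KO value. All KO tumors lay within the WT range (log2 fold change -0.03, 95% interval from -0.40 to 0.34, adjusted p = 0.948 from edgeR). The sign of this value changed with single tumors, from -0.14 without WT replicate 2 to 0.10 without WT replicate 1. The patterns most like that of *Jak2* were those of *Lama1* (r = 0.977, rho 0.955), *Klhl29* (r = 0.973, rho 0.982) and *Fbln7* (r = 0.970, rho 0.991), with r of 0.940, 0.950 and 0.970 without WT replicates 1 and 2.

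Across the family, the kinases *Jak1* and *Jak2* varied together within the groups (r = 0.704, rho 0.555), and *Tyk2* varied against both (r = -0.650 with *Jak1* and -0.624 with *Jak2*). Without WT replicate 2 and KO replicate 2 these values of r were 0.438, -0.657 and -0.389. *Stat3* varied with *Stat5a* (r = 0.648) and *Stat5b* (r = 0.703), and against *Stat2* (r = -0.619, rho -0.827), and without those 2 tumors r was 0.176, 0.301 and -0.682. Of the 28 pairs, 17 had an r above 0.

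Levels between genes were compared as CPM per kilobase of the canonical transcript. All exons of a gene together are longer, 10826 against 5640 bases for *Jak1* and 6306 against 4504 bases for *Stat2*. The order of genes close in level depends on which length is used. In WT tumors *Stat3* stood highest with 63.6 ± 12.8 (SD, n = 5), above the range of every other gene of the family. *Stat5a* (14.8 ± 4.04), *Stat6* (14.0 ± 2.39), *Jak1* (12.5 ± 2.41), *Stat2* (12.1 ± 4.61) and *Stat5b* (10.7 ± 2.64) followed with ranges that overlapped one another. *Tyk2* (6.84 ± 0.944) and *Jak2* (4.13 ± 1.20) stood lowest, and each overlapped its neighbour in this order. In KO tumors *Stat2* (4.57 ± 0.828, n = 6) stood beside *Tyk2* (5.06 ± 0.540) and *Jak2* (4.02 ± 0.653), with overlapping ranges.

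**Figure D3:**
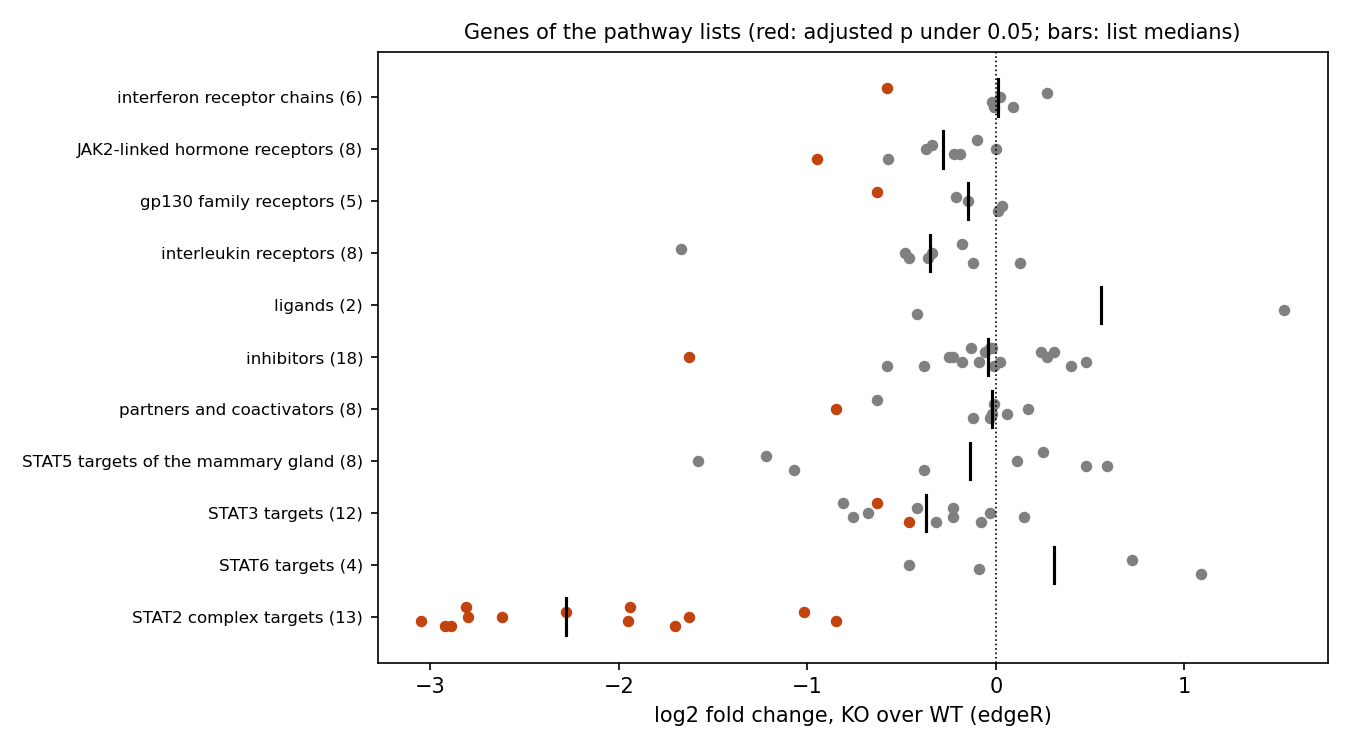
Log2 fold change, KO over WT, from edgeR for the genes of 11 pathway lists, 1 point a gene, with genes at an adjusted p under 0.05 in red, the list median as a black bar and the number of genes tested in parentheses. The 13 STAT2 targets lie between -3.05 and -0.85, and the other lists have medians between -0.37 and 0.56.

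Receptors act upstream of these kinases, and the counts below stand beside 1.66% of all genes lower. Of 6 interferon receptor chains, 1 was lower and 0 higher (median log2 fold change 0.01). *Ifnlr1*, the chain specific to type III interferon, had 42.7, 46.8, 27.7, 39.5 and 26.6 CPM in WT replicates 1 to 5, and 20.5, 24.2 and 27.7 CPM as the lowest, median and highest KO value (log2 fold change -0.58, standard error 0.13, adjusted p = 0.0391 from edgeR). This call was absent without any 1 of KO replicates 3, 4, 5 and 6 or WT replicates 1, 2 and 4, when 0 of the 6 chains were lower. It was also absent with library size only, with no filter on low counts, with limma on log2 CPM and with the replicate block.

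Of 8 tested receptors that signal through JAK2, 1 was lower and 0 higher, with a median log2 fold change of -0.28. *Csf2ra*, the alpha chain of the receptor for the growth factor GM-CSF, had 7.67, 8.63, 9.20, 9.20 and 7.95 CPM in WT replicates 1 to 5, and 3.25, 4.85 and 5.13 CPM as the lowest, median and highest KO value. Its groups did not overlap (log2 fold change -0.95, standard error 0.15, adjusted p = 0.00728 from edgeR), and this call was absent with the replicate block. *Prlr*, the prolactin receptor and the most abundant of the list, ranged from 103 to 509 CPM in WT and from 186 to 507 CPM in KO tumors, lowest in WT replicate 2.

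Of 5 tested gp130 family receptors, *Osmr* was lower, as above, and 0 were higher (median -0.15), and none of the 5 passed the threshold in edgeR without any 1 of KO replicates 3 to 6 or WT replicates 1, 4 and 5. The *Osmr* call was also absent with library size only, with limma on log2 CPM and with the replicate block. Of 8 tested interleukin receptor genes, 0 passed in either direction (median -0.35, values from -1.67 to 0.13, 7 of 8 below 0). Of these 8, 1 was lower with DESeq2, with limma-voom, and in edgeR without KO replicate 6 or WT replicate 2. The most abundant of these were *Il4ra*, *Il13ra1* (log2 fold change 0.13, standard error 0.12) and *Il15ra* (-0.36, standard error 0.24).

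Of the 11 ligand genes with a row in the tables, 2 were abundant enough to test and 0 passed. *Lif*, which encodes leukemia inhibitory factor, stood at a log2 fold change of -0.42 ± 0.26 (standard error), and *Thpo*, which encodes thrombopoietin, at 1.53 ± 0.41, with adjusted p of 0.410 and 0.0764 from edgeR. *Csf3*, the next in level, had at most 2.34 CPM in any tumor, and *Ifng*, the gene of interferon gamma, at most 0.284 CPM, close to the level of 3 counts. DESeq2 called 1 ligand gene higher.

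Of 18 inhibitors of the pathway, 1 was lower and 0 higher, with a median log2 fold change of -0.04. It was *Usp18*, which encodes a protease that restrains the type I interferon receptor, with 11.9, 8.91, 14.0, 11.2 and 2.68 CPM in WT replicates 1 to 5 and 1.80, 3.21 and 4.33 CPM as the lowest, median and highest KO value (log2 fold change -1.63, standard error 0.34, adjusted p = 0.0309 from edgeR). WT replicate 5 lay inside the KO range and the other WT tumors lay above it. Of 8 partners and coactivators, *Irf9* was lower and 0 were higher, with a median of -0.02.

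Without any 1 of KO replicates 3, 4 and 5 or WT replicates 1, 3 and 4, the count lower was 0 both for the inhibitors, *Usp18* included, and for the partners. Without KO replicate 1, with limma on log2 CPM, and with the replicate block, it was 0 for the inhibitors. DESeq2 and limma-voom each called 1 inhibitor higher.

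The genes beside the family on the chromosome were looked at for changes of a whole neighbourhood. Of 15 neighbouring or overlapping genes outside the family, 12 were tested and 0 passed the threshold in edgeR, with log2 fold changes from -0.28 to 0.35. Beside *Stat6*, *Lrp1* had -0.16 (standard error 0.19) and *Nab2* 0.04 (0.13). Beside *Tyk2*, *Raver1* had -0.07 (0.15) and *Cdc37* -0.14 (0.09). Beside the *Stat5* and *Stat3* genes, *Ghdc* had 0.30 (0.19) and *Ptrf* 0.04 (0.26). Beside *Jak1*, *Cachd1* had -0.28 (0.30) and *Raver2* 0.04 (0.28), and beside *Jak2*, *Insl6* had 0.29 (0.25) and the pseudogene *Gm5518* 0.35 (0.10).

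Markers of the cell types in a mammary tumor gave the background for these values. No marker gene that was tested passed the threshold in edgeR, but 0 B cell markers, 1 of 5 muscle, 2 of 6 NK cell and 3 of 8 T cell markers were abundant enough to test. The summed CPM of each of the 10 marker lists overlapped between the groups. The luminal epithelium markers, with *Cldn3* the most abundant, summed to between 988 and 1779 CPM in KO and between 1206 and 1748 CPM in WT tumors. The basal markers, led by *Oxtr*, summed to 116 to 351 CPM in KO and 83.1 to 727 CPM in WT tumors, and the fibroblast markers, led by *Col1a1*, to 287 to 683 CPM and 269 to 554 CPM.

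The macrophage markers, led by *C1qb*, summed to 140 to 283 CPM in KO and 97.7 to 225 CPM in WT tumors, and the endothelial markers, led by *Cdh5*, to 49.9 to 84.4 CPM and 50.2 to 88.7 CPM. The T cell markers, led by *Cd8a*, summed to 3.52 to 8.45 CPM in KO and 2.95 to 9.29 CPM in WT tumors, with *Cd3d*, *Cd2* and *Cd8b1* at 0 in some tumors. The NK cell markers, led by *Klrk1*, summed to 1.35 to 8.27 CPM and 2.23 to 7.97 CPM, with *Ncr1* and *Gzma* at 0 in some tumors. Of the B cell markers *Cd79b* alone was analysed here, with at most 0.773 CPM.

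The adipocyte markers, led by *Lipe*, summed to 15.3 to 40.1 CPM in KO and 14.2 to 80.3 CPM in WT tumors, with *Adipoq* and *Cidec* at 0 in some tumors. The skeletal muscle markers, led by *Acta1*, summed to 26.6 CPM in WT replicate 5, 20.4 CPM in KO replicate 1 and 18.1 CPM in KO replicate 4, and to at most 2.71 CPM in the other tumors, with *Myh4*, *Ckm*, *Mylpf* and *Tnnt3* at 0 in some tumors.

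WT replicate 5, the WT tumor with low *Stat2* and STAT2 targets, also had the lowest WT sums of the basal (83.1 CPM), macrophage (97.7 CPM), T cell (2.95 CPM), NK cell (2.23 CPM) and endothelial markers (50.2 CPM), and the highest muscle sum. The part of these cell types in its low values was not tested.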

How the data were processed

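Libraries were poly(A)-enriched, stranded and read from both ends. The authors used Bowtie2 for alignment (GRCm38) and Partek thereafter, and deposited estimated counts, of which between 17.9% and 19.6% per tumor were not whole. The authors also deposited CPM, each count divided by its column sum. The gene annotation and counting method are not given in the sources used here. All tumors carry the same batch label.

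Counts were rounded and fitted with edgeR 4.0.16 (R 4.3.3) across all genes that passed its default filter, with TMM factors, genotype as the only term, the quasi-likelihood test and Benjamini-Hochberg adjustment. The fits were tested on simulated data. Ratios of CPM were compared by exact permutation tests. Deposited stop positions were taken 1 base earlier as gene ends. Transcript lengths came from GENCODE for GRCm39, by Ensembl identifier. Alternatives used DESeq2 1.42.0, limma 3.58.1, other scalings and filters, protein-coding genes only, a replicate block and each tumor left out. The genes, the lists and the rule for named genes were chosen with earlier results of these data known. By that rule the text names each gene of a pathway list past the threshold, or otherwise its 3 most abundant, the most abundant marker of a list, the neighbours, and the 3 genes most alike in pattern. An item that this rule would name is not reported here.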

Additional observations from a re-analysis of the deposited data

Results flagged for a closer look

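Among 22 sets of values, the CPM of 8 genes and 3 log2 ratios in each group, 2 had a tumor that stood apart, and chance gives about 1 such set in 20. *Stat5a* had 30.3 CPM in WT replicate 2, a gap to the next WT tumor that took 0.868 of the whole WT range. *Stat6* had 46.9 CPM in KO replicate 2, a gap to the next KO tumor of 0.692 of the KO range.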

How the results depend on the processing

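With each tumor left out, the count of genes lower ranged from 144 (without KO replicate 3) to 389 (without KO replicate 2), and that of genes higher from 41 (without WT replicate 3) to 187 (without WT replicate 2). DESeq2 called 723 lower and 482 higher, and limma-voom with sample quality weights 1190 and 968. Of the 8 STAT and JAK genes, 1 or 2 were lower with each tumor left out, 2 without KO replicate 2 or WT replicate 1, 2 or 5, and 3 with DESeq2 or limma-voom. *Stat2* was lower in 21 of 22 alternatives, with log2 fold changes from -1.59 to -1.16 (adjusted p from 7.17e-06 to 0.0564, edgeR, DESeq2 or limma). The direction of 7 of the 8 genes held in all 22, with *Jak2* the exception.

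Replicate numbers are shared by the groups, and the labels do not say whether they pair the tumors. Correlations of same-numbered tumors across genes ranged from -0.144 to 0.293, and those of differently numbered tumors from -0.217 to 0.165. The highest of all was that of KO and WT replicate 5, so these values cannot settle whether the tumors are paired. With the replicate block on the 10 tumors numbered 1 to 5, 118 genes were lower, 42 higher and 0 of the 8 STAT and JAK genes lower (*Stat2* -1.37, adjusted p = 0.0564 from edgeR). Without KO replicate 6 and without the block, 212 genes were lower. The exact sign-flip test over 5 pairs gave 0.39 for *Stat5b* to *Stat5a* and -1.02 for *Stat2* to *Stat6*, each at p = 0.0625, the smallest it can give. *Tyk2* to *Jak1* ranged from -0.81 to -0.44 with each tumor left out.

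Depth limits ligand genes near 3 counts.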
